A study of Mus musculus with 4 samples.

Results

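Bile acids that the ileum takes back pass through a short chain of proteins, and the 7 genes described here encode that chain and the circuit that senses it: Slc10a2, Fabp6, Slc51a, Slc51b, Nr1h4, Fgf15 and Nr0b2. They were picked by symbol from the 32285 genes of the deposited count matrix, and all 7 were found with UMIs (unique molecular identifiers, 1 per captured transcript) in cells that passed. Of 44277 barcodes, 25788 passed limits of 500 UMIs, 250 genes and 25% mitochondrial UMIs.

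Slc10a2 is the sodium-coupled transporter of the apical membrane that brings bile acids into the ileal enterocyte, Fabp6 is the abundant cytosolic protein that binds them there, and Slc51a and Slc51b are the subunits of the basolateral exporter that releases them to the portal blood. Nr1h4 encodes FXR, the nuclear receptor that bile acids activate. FXR pairs with a retinoid X receptor on an inverted repeat of the half-site AGGTCA with a 1-base spacer (IR-1), and its known targets include Fabp6, Slc51a, Slc51b, the hormone gene Fgf15, whose product tells the liver to make less bile acid, and Nr0b2, a corepressor also called SHP.

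The study asked about 3-indolepropionic acid (IPA), a tryptophan product of gut bacteria, in the intestine. Male C57BL/6J mice aged 8 weeks ate high-fat food for 7 weeks and received l-NAME, an inhibitor of nitric oxide synthase, in both groups, and were 15 weeks old at sampling. The 2 control samples had no added IPA and the 2 IPA samples had 562.5 mg per kg of diet; each was a pool of 2 mice. Peyer's patches were cut away, epithelium from ileum to jejunum was loosened by EDTA with DTT, live cells were sorted as those without DAPI stain, and 3′ v2 droplet libraries were made. The matrix joins 4 libraries that differ by a number on the barcode, and no label or header used here says which number belongs to which diet. Libraries 1 to 4 are therefore described singly, with no diet comparison and no test.

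Since several of these genes are known FXR targets, the closest matches to the FXR repeat in their promoters are shown, read from RefSeq windows (GRCm38.p6, 250 bases before to 50 after the start; 6 of the 7 genes matched). The motif AGGTCANTGACCT reads the same on both strands, and a mismatch was counted at any of its fixed letters. Capitals mark the 13 bases of the match, printed 5′ to 3′ on the gene's strand. Fabp6 had 2 places with 2 mismatches, on the minus strand at chr11:43601692-43601704 and chr11:43601772-43601784, which lie 142 to 130 and 222 to 210 bases upstream of the start; 1.14% of 32841 promoter windows held a match this close. Slc51a had a match with 3 mismatches 79 to 67 bases upstream (minus strand, chr16:32487946-32487958), as did Slc51b 187 to 175 bases upstream (minus strand, chr9:65422948-65422960, across the GENCODE start of the gene); 11.4% of windows held one at least that close.
Fabp6, near: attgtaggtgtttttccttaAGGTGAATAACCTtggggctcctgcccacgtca
Fabp6, far: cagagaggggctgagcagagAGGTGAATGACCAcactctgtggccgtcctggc
Slc51a: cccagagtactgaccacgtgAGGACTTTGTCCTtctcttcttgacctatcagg
Slc51b: GGGTCATTCACCC
The closest matches of Slc10a2, Nr1h4 and Nr0b2 had 4 mismatches, which 56.4% of windows reached; the Nr1h4 window (chr10:89506609-89506908) lies at an inner start, well inside the gene as GENCODE gives it (chr10:89454234-89533585). Slc51a, Slc51b and Nr1h4 each held the half-site AGGTCA without a mismatch, on either strand, as did 16.3% of all windows. Such matches describe letters in these windows, and binding was not tested.

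Enterocyte-like cells carried nearly all transcripts of the chain. Clustering without the 7 genes placed 18048 cells in 13 enterocyte-like clusters (4648, 5161, 3133 and 5106 cells in libraries 1 to 4, with median depths of 25976 to 30900 UMIs). Of the UMIs in all clustered cells, enterocyte-like cells held 98.7% for Fabp6, 98.4% for Slc10a2, 98.3% for Fgf15, 97.2% for Slc51b, 96.3% for Slc51a, 95.8% for Nr0b2 and 87.5% for Nr1h4, whose transcripts were also counted in goblet-like, stem-like and cycling-like cells (10.9 to 21.4 CPM, counts per 1000000 UMIs of the cells summed). T-like cells were found mainly in libraries 1 and 3 (323 and 1246 cells, against 4 and 5 in the other libraries), and 75 barcode sequences occurred in more than 1 library.

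Single Fabp6 UMIs were not a sign of an ileal cell. With cells thinned to 5000 UMIs, a Fabp6 UMI was present in 16.4% and 23.7% of T-like cells of libraries 1 and 3 and in 12.9% to 19.1% of goblet-like cells. Median depths before thinning were 3597 and 3791 UMIs in T-like cells, of which 61 and 257 were deep enough, and 21118 to 27995 in goblet-like cells. Enterocyte-like cells with little Fabp6, defined next, held one in 8.32% to 11.7% of cells, below both. Because T-like cells were far shallower before thinning, a share below both cannot show whether these UMIs are background.

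Fabp6 split the enterocytes into 2 sets. In library 1, 2763 of 4648 cells had no Fabp6 UMI, and the counts in the other libraries were 2931, 1821 and 3361. At the other end, 154, 259, 147 and 139 cells gave at least 10000 CPM to this gene, and the highest single cell reached 127987 CPM. Few cells lay near 1000 CPM: 15, 49, 16 and 10 cells had 500 to 1000 CPM, and 16, 53, 11 and 21 had 1000 to 2000 CPM. Library 2 had the most cells in between. The limit for Fabp6-high cells was set at 1000 CPM from this distribution.

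**Figure D1:**
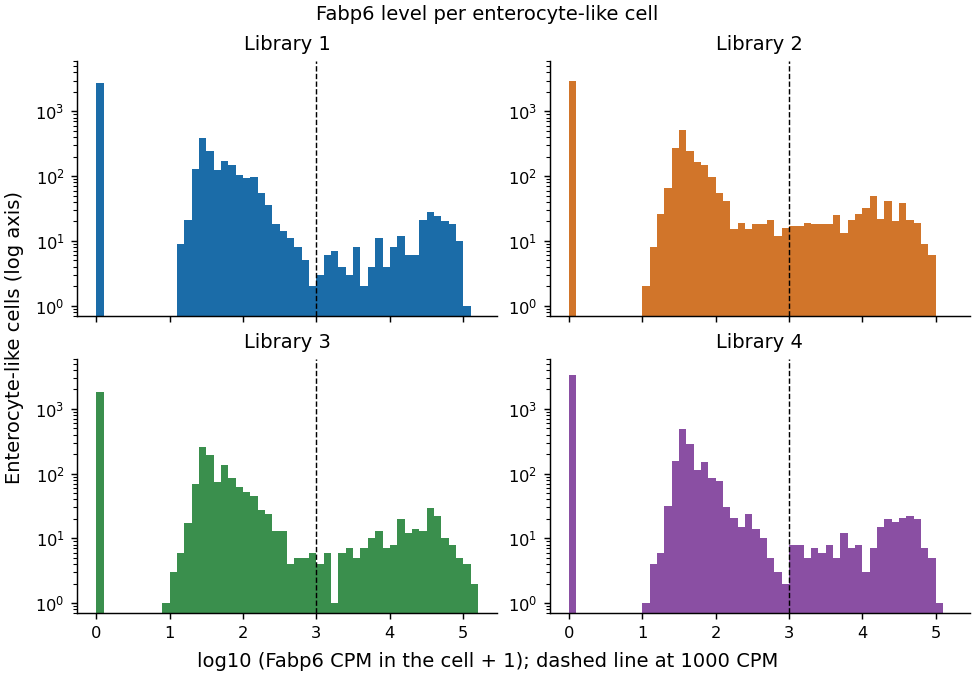
Number of enterocyte-like cells (log axis) against log10 of Fabp6 CPM plus 1 in each cell, 1 panel per library; the bar at 0 holds cells with no Fabp6 UMI and the dashed line marks 1000 CPM. A broad low mode and a high mode above 10000 CPM stand apart in libraries 1, 3 and 4, and library 2 has a flatter stretch between them.

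Fabp6-high cells numbered 206, 451, 213 and 213, or 4.43% (95% Clopper-Pearson interval 3.86 to 5.06), 8.74% (7.98 to 9.54), 6.80% (5.94 to 7.74) and 4.17% (3.64 to 4.76) of enterocyte-like cells in libraries 1 to 4. The intervals of libraries 1 and 4 overlap, and those of libraries 2 and 3 lie above both; the intervals cover counting error only. Which stretch of intestine entered each library can set these shares. An enterocyte marker gate in place of clusters, which takes out any cell with 2 UMIs of markers such as Chga, lowered the shares to 1.93%, 3.75%, 4.41% and 2.52%.

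Of 12 enterocyte markers, 4 were lower at least 2-fold in Fabp6-high cells of every library and none was higher. Among the 4 was Fabp1, at 2982 to 7404 CPM in Fabp6-high cells against 34083 to 39845 CPM in Fabp6-low cells. All 12 summed to 36188 to 86865 CPM against 91742 to 115914 CPM. Fabp2 was higher in Fabp6-high cells of libraries 2 to 4 and lower in library 1. Alpi, the brush-border phosphatase, was at 243 to 367 CPM in Fabp6-high cells, below the 402 to 840 CPM of Fabp6-low cells, and the villus protein gene Vil1 was at 980 to 1146 CPM against 728 to 1004 CPM. Of 13 lists for other cell types, 11 had no gene higher by that rule, 1 had Axin2 alone of 8 stem cell markers, and 1 had Chga. Chga, a granule protein gene of enteroendocrine cells, was at 58.9, 81.0, 47.2 and 56.6 CPM in Fabp6-high cells against 4.03, 9.83, 3.65 and 4.30 CPM in Fabp6-low cells. It was 1 of 9 enteroendocrine markers higher at least 2-fold in every library. The list summed to 93.7 to 235 CPM in Fabp6-high cells, highest in library 3 where Sct was at 114 and Pyy at 55.9 CPM, and to 33.7 to 46.9 CPM in Fabp6-low cells. None of its genes was at 0 in all libraries. Chgb, at 9230 to 11732 CPM in enteroendocrine-like cells, was at 1.05 to 5.44 CPM in Fabp6-high cells. Between 29.6% and 42.8% of Fabp6-high cells held at least 2 Chga UMIs. Fabp6-high cells with no Chga UMI had Slc51a at 1433, 1166.5, 1141 and 1487 CPM and Slc10a2 at 553, 351, 117 and 184 CPM. Those with at least 2 Chga UMIs had Slc51a at 1345, 1045, 1081 and 1371 CPM and Slc10a2 at 241, 112, 85.3 and 133 CPM. Fabp6-low cells went the other way, with Slc10a2 at 6.58, 20.9, 14.1 and 23.2 CPM beside at least 2 Chga UMIs. Without a Chga UMI they had 1.54, 1.49, 1.66 and 1.87 CPM.

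Most transcripts of the uptake transporter were in these cells. Slc10a2 was at 373, 184, 106 and 166 CPM in Fabp6-high cells of libraries 1 to 4 and at 1.73, 3.16, 2.03 and 2.59 CPM in Fabp6-low cells. The ratios were 215 (counting interval 186 to 249), 58.4, 52.2 and 64.2, and Fabp6-high cells held 83.8% of all its enterocyte UMIs. Over all positions no Fabp6-low value came near a Fabp6-high value, and library 1 was highest. In the most distal region bin the gap was narrower towards the tip (scores described further on). In zone bin 4 there, Slc10a2 was at 503, 616, 120 and 274 CPM in 9, 18, 43 and 33 Fabp6-high cells. Fabp6-low cells had 51.8, 56.8, 25.9 and 37.6 CPM. In zone bin 1, at the base, values were 291, 137, 79.8 and 110 CPM against 1.64, 2.29, 3.66 and 1.51 CPM. In zone bin 5 Fabp6-high cells were higher except in library 3, at 8.73 CPM (1 UMI) against 9.38 CPM. Fabp6, which defined the sets, was at 34549.5, 18119, 23452.5 and 25906 CPM against 22.1, 27.5, 22.6 and 18.2 CPM, and 98.5% of its UMIs were in the Fabp6-high cells; this is a description of the choice.

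The exporter subunits were expressed far more widely. Slc51a stood at 1365, 1091, 1128 and 1425 CPM in Fabp6-high cells and at 260, 289, 241 and 292 CPM in Fabp6-low cells, ratios of 5.25, 3.78, 4.69 and 4.88. Slc51b stood at 935, 717, 576 and 862 CPM against 274, 242, 178 and 267 CPM, ratios of 3.41, 2.96, 3.25 and 3.23. Both were higher in the Fabp6-high cells of every library without overlap. Since Fabp6-low cells were far more numerous, Fabp6-high cells held only 21.7% of Slc51a and 16.1% of Slc51b UMIs. In Fabp6-low cells thinned to 5000 UMIs, Slc51a was present in 60.3% to 71.3% and Slc51b in 52.3% to 69.1% of cells, well above the T-like background of 5.45% to 9.84% and 2.72% to 3.28%.

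Nr1h4, the FXR gene, was expressed in both sets as well and, over all positions, was higher in the Fabp6-high cells of every library. It was at 107, 61.9, 74.6 and 58.0 CPM in Fabp6-high cells and at 21.6, 27.8, 23.7 and 22.7 CPM in Fabp6-low cells, ratios of 4.94, 2.23, 3.14 and 2.55. Fabp6-high cells held 15.9% of its enterocyte UMIs. The hormone gene Fgf15 was at 73.8, 101, 85.1 and 123 CPM in Fabp6-high cells and at 0.287, 0.717, 0.813 and 1.76 CPM in Fabp6-low cells, ratios of 257 (counting interval 179 to 368), 140, 105 and 70.0. Its Fabp6-high cells held 86.7% of its UMIs.

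Nr0b2 went the other way. It was at 2.25, 2.11, 1.81 and 4.06 CPM in Fabp6-high cells, from 13, 22, 11 and 21 UMIs, and at 19.9, 6.56, 15.8 and 22.5 CPM in Fabp6-low cells. Levels in Fabp6-low cells were 8.86, 3.11, 8.69 and 5.54 times those in Fabp6-high cells, and only 0.937% of its UMIs lay in Fabp6-high cells. At least 2-fold in each of the 4 libraries, after adding 1 CPM, 5 of the 6 members other than Fabp6 were higher in Fabp6-high cells and 1, Nr0b2, was lower; 2.04% of 10520 genes tested were higher and 2.47% were lower by the same rule. With 10 CPM added instead, 4 were higher and none was lower, and the marker gate left 4 higher. Fabp6-high cells also had less Apoa4, the apolipoprotein gene of the proximal and upper villus, with a median of 0.0246% to 0.0695% of UMIs against 0.561% to 1.67%. Within the lowest Apoa4 bin alone, the Nr0b2 ratio of Fabp6-high to Fabp6-low cells was 1.08 (counting interval 0.536 to 2.16), 3.77 (1.99 to 7.12), 0.75 (0.309 to 1.82) and 2.39 (1.22 to 4.69), from 6 to 18 UMIs in Fabp6-high cells, so the lower level was not seen in that bin. In the next Apoa4 bin the ratio was 0.449, 0.548 and 0.363 in libraries 2 to 4, from 3 UMIs each and with intervals that include 1. Within bins of a villus zone score without Apoa4, described further on, all 13 ratios that could be formed were below 1, from 0.104 to 0.937, and 10 had intervals wholly below 1; in 2 more the Fabp6-high cells had no Nr0b2 UMI. Nr0b2 was thus lower at a matched zone score in most comparisons and not at the lowest Apoa4 share. Those zone bins hold cells of all gut regions. In the most distal bin of a region score, also described further on, few Nr0b2 UMIs were left. In its first zone bin, Fabp6-high cells had 2.13, 0.911, 0.378 and 2.82 CPM, from 1 to 9 UMIs. Fabp6-low cells there had 1.64, 0.293, 1.22 and 1.00 CPM. The second zone bin had the same directions, and in the third Fabp6-high cells were lower in libraries 1 to 3. Nr1h4 ratios in the lowest Apoa4 bin were 3.01, 1.75, 1.82 and 1.76, and in the next bin of library 2 the ratio was 0.787 (0.534 to 1.16). The Nr1h4 ratio was 3.96, 2.22, 2.16 and 2.30 in zone bin 1 of libraries 1 to 4. It was lowest in zone bin 3, at 2.31, 1.32, 1.29 and 1.25, with intervals that include 1 in libraries 2 to 4. In zone bin 3 of the most distal region bin, Nr1h4 was at 48.4, 23.9, 35.8 and 28.9 CPM in Fabp6-high cells. Fabp6-low cells there had 22.3, 16.3, 34.3 and 15.9 CPM. In zone bins 1, 2 and 4 of that region bin Nr1h4 was also higher in Fabp6-high cells.

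**Figure D2:**
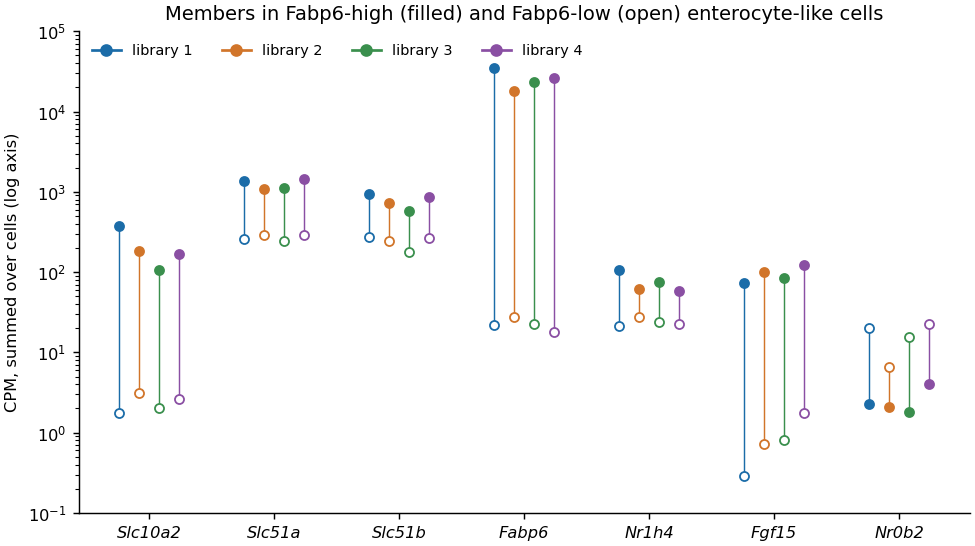
CPM of each gene (log axis) summed over Fabp6-high cells (filled) and Fabp6-low cells (open) of each library, joined by a line. The filled point lies above the open point for 6 genes in all 4 libraries, including Fabp6, which chose the cells, and below it for Nr0b2.

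Within the Fabp6-high cells the chain was graded. They were sorted by their Fabp6 level into 3 equal bins over all libraries, so Fabp6 itself is not described. Slc10a2 was at 28.7 to 84.2 CPM in the lowest bin, 104.5 to 200.2 CPM in the middle bin and 190.3 to 576 CPM in the highest, in that order within each of the 4 libraries. Slc51a went from 678 to 995 CPM in the lowest bin to 1531 to 1803 CPM in the highest, in the same order of bins in every library. Slc51b likewise went from 326 to 696 CPM to 814 to 1172 CPM. Fgf15 was lowest in the lowest bin of libraries 1, 2 and 4, and in library 3 its values were 37.9, 35.2 and 189 CPM. Nr1h4 differed less, from 54.7 to 71.4 CPM in the lowest bin to 58.4 to 127 CPM in the highest. All levels in a bin share 1 total, which includes Fabp6.

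Single cells carried several members at once. In cells thinned to 5000 UMIs, Slc10a2 was present in 17.4%, 19.3%, 16.2% and 19.9% of enterocyte-like cells with a Fabp6 UMI and in 0.788%, 1.16%, 1.29% and 1.17% of those without. Read from the other side, Fabp6 was present in 80.1%, 78.1%, 71.9% and 70.0% of cells with a Slc10a2 UMI. Cells with a Fgf15 UMI held Fabp6 in 94.9%, 94.9%, 79.7% and 77.9% of cases (39, 117, 64 and 95 cells). All 4 transport genes were seen together in 59.0%, 34.6%, 35.0% and 49.5% of Fabp6-high cells and in 2.26% to 3.15% of all enterocyte-like cells. Fabp6, 1 of the 4, defined the Fabp6-high cells, so the gap between these shares rests in part on that choice. Slc10a2 alone was present in 59.6%, 36.3%, 37.6% and 50.0% of Fabp6-high cells.

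The uptake gene and the hormone gene also met within the Fabp6-high cells. There, Fgf15 was present in 24.1%, 34.2%, 37.8% and 38.2% of cells with a Slc10a2 UMI and in 13.2%, 20.3%, 17.1% and 27.5% of cells without. The share was higher beside Slc10a2 in all 4 libraries, and the 95% intervals were apart in libraries 2 and 3 and overlapped in libraries 1 and 4. Nr0b2 was present in 6.38%, 1.61%, 3.56% and 6.68% of enterocyte-like cells with a Fabp6 UMI and in 8.96%, 2.61%, 6.15% and 9.78% of those without. Its share was lower beside Fabp6 in each library, but the 95% intervals overlapped in all 4 libraries. Slc51b was present in 58.5% to 72.8% of cells with Slc51a and in 48.3% to 64.9% of cells without it, a difference in the same direction in each library. These shares describe cells of 1 library each and carry no test.

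Position along the gut was read from a score of 16 distal genes minus a proximal list, neither holding a member. Slc10a2 was at 0.894 to 1.72 CPM in bins 1 to 4 of the score in all libraries and stood at 167, 61.5, 45.7 and 54.9 CPM in bin 5. Fgf15 was at most 0.909 CPM in bins 1 to 4 and at 33.8, 31.2, 36.5 and 42.4 CPM in bin 5. Of the Fabp6-high cells, 96.1%, 98.0%, 99.5% and 96.7% fell in bin 5, but they were only 23.0% to 36.1% of that bin, which held 11.8%, 28.5%, 22.1% and 17.5% of the enterocyte-like cells of libraries 1 to 4. Bin 5 held 350, 1031, 481 and 690 Fabp6-low cells, of which 74, 585, 49 and 132 were in the lowest zone bin, described further on. Among all 4442, 4710, 2920 and 4893 Fabp6-low cells, 632, 2028, 99 and 331 were in it. The region score can thus reflect villus position as well.

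The exporter and the receptor were present all along the score. Slc51a was at 214 to 309 CPM in bins 1 to 4 and at 766, 554, 608 and 728 CPM in bin 5. Slc51b dipped in bin 4, at 210, 200, 115 and 214 CPM, beside 298, 285, 210 and 277 CPM in bin 1 and 526, 357, 321 and 465 CPM in bin 5. Nr1h4 went from 19.5, 21.9, 20.8 and 19.8 CPM in bin 1 to 62.6, 45.0, 45.1 and 35.6 CPM in bin 5. Nr0b2 ran down the score in every library: from 34.2, 17.3, 27.6 and 37.5 CPM in bin 1 to 1.97, 1.11, 2.87 and 2.12 CPM in bin 5. That direction rested on the proximal genes. With the distal list alone Nr0b2 was highest in the middle bins and its log2 ratio of bin 5 to bin 1 was 0.41, 0.63, 1.42 and 0.44 in place of a negative value, and that of Nr1h4 in libraries 2 and 3 became -0.34 and -0.54.

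**Figure D3:**
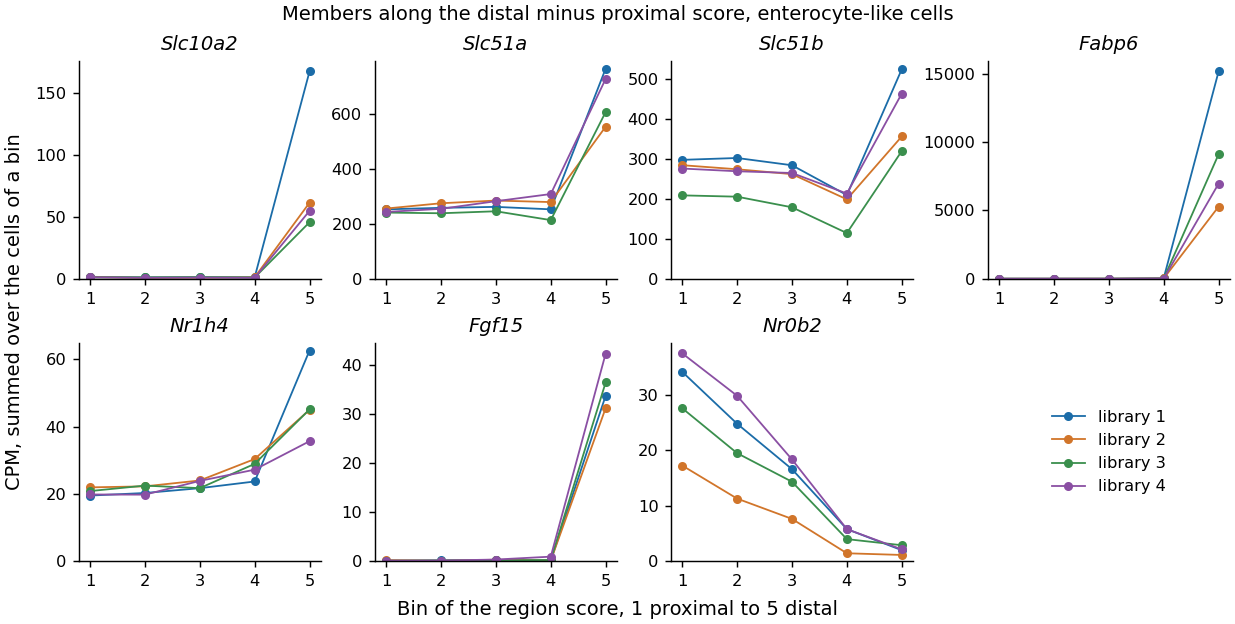
CPM of each gene in 5 bins of the distal minus proximal score (1 proximal, 5 distal), 1 line per library, with axes from 0. Slc10a2, Fabp6 and Fgf15 stand up in bin 5 alone, Slc51a, Slc51b and Nr1h4 are present in every bin, and Nr0b2 runs downward.

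Along the villus, Nr1h4 had another profile than Slc10a2 and Fgf15. The zone score sets genes of the villus tip against genes of its base, with neither Apoa4 nor a member in the lists. The base genes Reg3b and Lypd8 were higher in Fabp6-high cells of every library, and the tip gene Creb3l3 is also in the proximal list. Reg3b was at 60458, 61138, 11191 and 13018 CPM against 9088, 22711, 957 and 1379 CPM in Fabp6-low cells. Between these 2 sets of cells the score can thus reflect region as well as villus position. Among Fabp6-high cells in 3 equal bins, Nr1h4 was at 131, 84.7, 117 and 108 CPM in the base bin of libraries 1 to 4, at 84.2, 48.0, 90.8 and 63.7 CPM in the middle bin, and at 50.3, 24.5, 32.4 and 29.6 CPM in the tip bin. It was lower in each following bin of all 4 libraries. Slc10a2 was lowest in the base bin of every library, at 282, 98.6, 50.6 and 83.1 CPM beside 588, 308, 117 and 208 CPM in the tip bin. Fgf15 was also lowest at the base, at 65.2, 66.1, 28.8 and 99.2 CPM, beside 106, 141, 75.2 and 112.5 CPM at the tip. The middle bin was above the tip bin for Slc10a2 in library 3 and for Fgf15 in libraries 3 and 4. Slc51a was at 861 to 1281 CPM at the base, 1261 to 1572 in the middle and 1145 to 1384 at the tip, with the middle bin highest and the base lowest in each library. Slc51b was likewise lowest at the base, at 449 to 839 CPM, beside 614 to 1036 at the tip. Fabp6, which chose these cells, was highest in the middle bin of each library, and its tip bin was below its base bin in libraries 1 and 4 and above it in libraries 2 and 3.

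**Figure D4:**
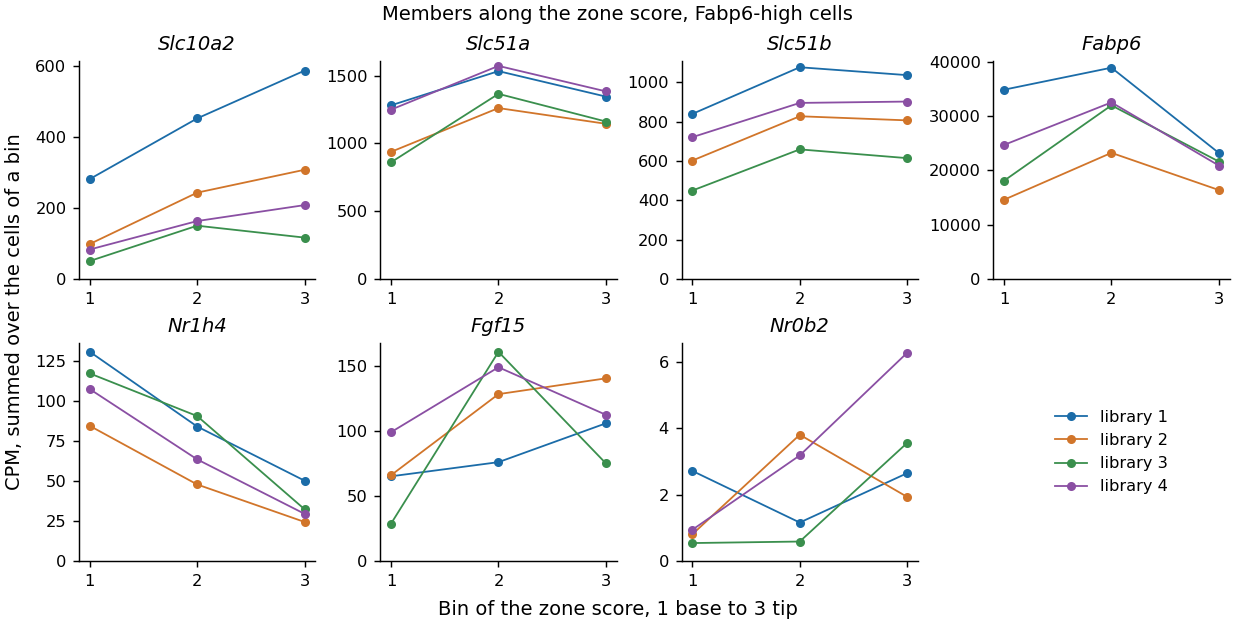
CPM of each gene in 3 bins of the zone score (1 base, 3 tip) within Fabp6-high cells, 1 line per library, with axes from 0. Nr1h4 is lower in each following bin, Slc10a2 and Fgf15 are lowest in bin 1, and Nr0b2 is at most 6.28 CPM throughout.

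Nr1h4 had the same gradient in Fabp6-low cells, which include most cells of the most distal region bin. Its level was 31.3, 35.2, 52.5 and 41.2 CPM in the first of 5 zone bins and 5.52, 1.87, 7.16 and 7.83 CPM in the last. Nr0b2 had a hump, with 2.93 to 8.79 CPM in bin 1, 10.5 to 34.9 CPM in bin 4 and 4.97 to 22.6 CPM in bin 5, and its top lay in bin 4 of libraries 1, 3 and 4 and in bin 3 of library 2. Over all enterocyte-like cells, the Apoa4 share of UMIs, which is also higher in the proximal gut, gave Nr0b2 the same shape. It went from 0.824 to 2.07 CPM in the lowest Apoa4 bin to 14.6 to 35.8 CPM in bin 4. In all enterocyte-like cells Nr1h4 was at 41.8 to 57.0 CPM in the lowest Apoa4 bin and at 3.85 to 8.12 CPM in the highest. Over all enterocyte-like cells Slc10a2, Fabp6 and Fgf15 were concentrated in the lowest Apoa4 bin, at 26.9 to 100 CPM for Slc10a2; within Fabp6-high cells in 3 Apoa4 bins, Slc10a2 was higher in the last bin than the first in libraries 1, 3 and 4 and lower in library 2.

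Some cells held Slc10a2 with little Fabp6. Cells with at least 3 Slc10a2 UMIs numbered 120, 158, 73 and 110 among Fabp6-high cells and 7, 34, 11 and 30 among Fabp6-low cells, where the median Fabp6 level was 43.7 CPM. Of those 82 Fabp6-low cells, 75 were in the most distal region bin. In libraries 1 to 4, 71.4%, 58.8%, 90.9% and 73.3% of them lay in the last 2 zone bins, the tip side, and 10.8%, 10.8%, 20.5% and 27.3% of the Fabp6-high cells with as much Slc10a2 did. By this score, which holds base genes that were higher in Fabp6-high cells, Fabp6-low cells lay nearer the tip in any case. In the most distal region bin, 52.3%, 12.3%, 67.2% and 47.1% of all Fabp6-low cells were in the last 2 zone bins. The shares of all Fabp6-high cells were 11.1%, 5.88%, 25% and 21.8%. In that region bin, 5 of 5, 20 of 32, 8 of 9 and 21 of 29 Fabp6-low cells with 3 or more Slc10a2 UMIs were there, few cells in libraries 1 and 3. No Fabp6 UMI at all was found in 4, 13, 4 and 10 of the 82 cells. Median depths over all libraries were 23410 and 26313 UMIs.

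The same shape appeared in levels. Among Fabp6-low cells of the most distal region bin, Slc10a2 was at 1.64, 2.29, 3.66 and 1.51 CPM in the base bin of the zone score. In the fourth bin it was at 51.8 (95% Poisson interval 34.4 to 74.8), 56.8 (41.9 to 75.3), 25.9 (16.6 to 38.5) and 37.6 (29.2 to 47.6) CPM, above the base bin in every library without overlap of the intervals. In the last bin the libraries parted, from 9.38 CPM in library 3 to 108 CPM in library 2. Nr1h4 in the same cells was at 43.8 to 64.1 CPM in the base bin and at most 3.82 CPM in the tip bin. Fgf15 gave no common picture: cells with 3 or more UMIs numbered 48, 95, 52 and 71 among Fabp6-high and 4, 8, 5 and 21 among Fabp6-low cells, and at the tip bin Fgf15 was at 0.622, 0.981, 10.2 and 16.4 CPM.

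**Figure D5:**
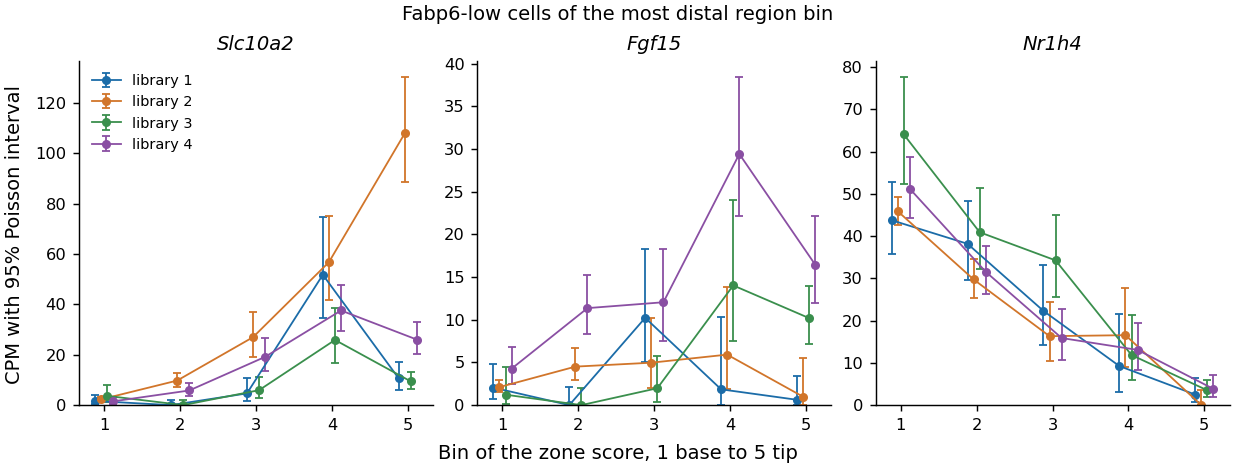
CPM with 95% Poisson intervals of Slc10a2, Fgf15 and Nr1h4 in Fabp6-low cells of the most distal region bin, in 5 bins of the zone score (1 base, 5 tip), 1 line per library, axes from 0. Slc10a2 is near 0 in bin 1 and above 25 CPM in bin 4 of all libraries, Nr1h4 is lower towards bin 5, and Fgf15 differs between libraries.

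Between libraries, the median range of the members was 1.62-fold, and that of all genes tested 1.24-fold. Over all enterocyte-like cells, Slc10a2 was at 20.1, 16.8, 9.26 and 9.24 CPM and Nr0b2 at 19.0, 6.22, 14.8 and 21.7 CPM, highest over lowest 2.17 and 3.49. These were the 2 of 7 members whose highest library was at least 2-fold above the lowest after adding 1 CPM, and 3.79% of 10419 genes did the same. Without library 1 or without library 2 the count was 1, and with 10 CPM added it was 0. Fgf15 was at 3.92, 8.24, 6.67 and 6.69 CPM, Fabp6 at 1728, 1389.6, 1651 and 1069 CPM, Slc51b at 307, 278, 205 and 291 CPM, Slc51a at 315, 349, 302 and 338 CPM and Nr1h4 at 25.8, 30.3, 27.2 and 24.2 CPM. With the marker gate Fabp6 was at 473 to 829 CPM.

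Cell makeup also differed between libraries, and its part in these ranges was not tested. In Fabp6-high cells alone, Slc10a2 was the 1 of 7 members with a 2-fold range, 3.52 from library 3 to library 1, beside 7.84% of 10505 genes. Those cells fell in different clusters. The cluster with 101 of the 213 in library 4 had 0 from the other libraries, and another held 126, 310, 146 and 17. Enterocyte-like clusters with Isg15 and Ddx60 among their leading genes held 1483, 868 and 159 cells of library 1. Each held at most 96 of any other library. Library 2 had the lowest Nr0b2 and the most cells in the lowest zone bin, 2287 of 5161. Within single zone bins it was still lowest from bin 3 on, at 12.3, 10.2 and 4.85 CPM beside 19.1 to 26.2, 23.5 to 34.3 and 13.0 to 22.4 CPM in the others. Whether diet, region sampled or handling lies behind any of these cannot be told apart here.

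Genes whose cell-to-cell pattern was most like Fabp6 were ranked by Pearson's r of log-normalized counts over enterocyte-like cells, averaged over libraries, among 9313 genes. The 10 first were Suox, the sulfite oxidase of mitochondria (mean r 0.741), Mgat4c (0.722), Prss23 (0.628), Guca2a, the precursor of the gut peptide guanylin (0.554), Tmigd1 (0.524), Fam151a (0.512), Tmem117 (0.511), Xpnpep2, a membrane aminopeptidase (0.496), Mep1a, the alpha subunit of the protease meprin (0.491) and Ddah1 (0.486). Suox was at 217, 103, 90.2 and 117 CPM in Fabp6-high cells and at 0.467 to 0.788 CPM in Fabp6-low cells. Tmigd1, Fam151a, Xpnpep2 and Mep1a are also in the distal list. For Slc10a2 the 5 first were Suox (0.662), Tmigd1 (0.587), Mgat4c (0.552), Prss23 (0.511) and Mep1a (0.479). For Fgf15 they were Suox (0.471), Mgat4c (0.411), Tmigd1 (0.399), Xpnpep2 (0.384) and Guca2a (0.372). Points share a cell's depth and library, and 6 of the 10 were among the first 10 with cells thinned to 5000 UMIs or without library 4.

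Nr0b2 had none of these among its first 5, which included Slc2a2 (0.292), a basolateral sugar transporter, Leap2 (0.285), Gm5485 (0.282) and Prxl2a (0.280), correlations too weak in sparse counts to be a finding. Among members, mean r was 0.669 for Slc10a2 and Fabp6, 0.540 for Fabp6 and Fgf15, 0.468 for the Slc51 pair and -0.0914 for Fabp6 and Nr0b2.

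Of 41 other genes of the pathway, few differed as widely. By the rule of 2-fold in each library, 2 were higher in Fabp6-high cells and 2 were lower, beside 2.04% and 2.47% of all genes; 28 had a UMI in at least 1% of enterocyte-like cells and 4 had none (Slco1a4, Slco1a5, Cyp7a1 and Cyp7b1, the first 2 transporters and the last 2 hydroxylases of bile acid synthesis); a count of 0 there leaves room for levels of at most 0.0344 CPM in library 3. The 2 higher genes were Baat, which conjugates bile acids to taurine or glycine (4.12 to 5.41 CPM against 0.404 to 0.873), and Sdc1, a heparan sulfate proteoglycan and known FXR target (55.9 to 65.8 against 19.7 to 25.4). The 2 lower genes were Nr1i3, the receptor CAR (20.2 to 35.2 against 89.4 to 105), and the apolipoprotein gene Apoc2 (762 to 1581 against 6027 to 11049).

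Among receptors and regulators, several stood between. Gata4, which represses ileal genes in the jejunum, was at 19.9 to 25.2 CPM in Fabp6-high cells and 47.7 to 55.7 in Fabp6-low cells, and Gata6 at 54.6 to 70.5 against 109 to 137. Nr5a2, which works with Nr0b2 on bile acid genes, was at 22.2 to 36.5 against 10.9 to 18.0. Hnf4a was at 155 to 201 against 112 to 145, and the retinoid receptor partners differed less, with Rxra at 33.9 to 43.1 against 32.2 to 44.8 and Rxrb at 11.4 to 16.0 against 12.0 to 15.0. Others, over all enterocyte-like cells, were Hnf4g at 90.4 to 136, Vdr at 122 to 135, Nr1i2 at 45.1 to 58.8, Mafg at 24.7 to 31.7 and Zfp36l1 at 36.1 to 49.3 CPM.

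Other transporters and enzymes differed by gene. Malrd1, which promotes FGF15 output, was at 58.6 to 69.8 CPM in Fabp6-high cells and 29.3 to 33.4 in Fabp6-low cells. The sulfate transporter Slc13a1, which is also in the distal list, was at 159 to 297 against 53.5 to 86.2. The efflux pump genes Abcc2 (69.6 to 126 against 155 to 296) and Abcc3 (19.7 to 24.1 against 39.6 to 46.0) were lower, and Abcg2 was at 192 to 240 against 139 to 161. Over all enterocyte-like cells, Slco2b1 was at 18.6 to 24.5, Slco2a1 at 19.5 to 27.5, Cyp27a1 at 7.86 to 11.0, Hsd3b7 at 13.4 to 16.0, Slc27a5 at 0.591 to 0.649, Osgin1 at 63.5 to 71.5 and Sqstm1 at 40.6 to 56.4 CPM.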

How the data were processed

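Per the file headers and values, the deposited matrix holds raw UMI counts as whole numbers. Cell Ranger 6.1.1 and mm10 are named in the submitters' processing notes, and how barcodes were chosen is not stated there. The 7 members, the lists and the marker sets were chosen with earlier results of these data known. Named were all members, pathway genes with a UMI in at least 1% of enterocyte-like cells, the 10 genes most like Fabp6 and the first 5 for Slc10a2, Fgf15 and Nr0b2. A few genes under this rule are not reported here.

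Scrublet's own threshold marked 5, 2, 149 and 1 cells and had not worked in 3 libraries, so the 6% of highest scores were removed per library (1546 cells), leaving 24242. With scanpy 1.11.5, 2000 variable genes without the members, 30 components and 15 neighbours gave 29 Leiden clusters at resolution 1, named from marker sets; 4 clusters (1124 cells) stayed unnamed, 794 of these cells for low depth. Cells of a class were summed to CPM, with exact Poisson intervals; shares have Clopper-Pearson intervals and cover counting error only. Cells were thinned without replacement to 5000 UMIs; 292, 236, 140 and 152 shallower enterocyte-like cells were left out. The scripts were tested on simulated data.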

Additional observations from a re-analysis of the deposited data

How the results depend on the processing

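Alternatives were a depth filter of 1000 UMIs and 500 genes, other mitochondrial limits, doublets kept, other cluster resolutions, a marker gate, a total without mitochondrial genes, other thinning depths, other position measures and each library left out; limits of 500 and 2000 CPM, shallow cells, and profiles or ratios within Fabp6-high or Fabp6-low cells or position bins were added after seeing the data. No paired analysis was possible because no label ties a library to a sample.

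The count of members with a 2-fold library range, 2, was 1 with the marker gate, 0 with 10 CPM added, and 1 to 2 with a library left out. The count of members other than Fabp6 higher in Fabp6-high cells was 5, or 4 with the marker gate and with 10 CPM added, and the count lower, 1, was 0 with 10 CPM added. Shares of Fabp6-high cells became 1.93%, 3.75%, 4.41% and 2.52% with the marker gate, 9.69% and 7.71% in library 2 with limits of 500 and 2000 CPM, and 5.05% in library 3 with 50% mitochondrial UMIs allowed. Of the Fabp6-high cells the gate took out, 54.3% to 69.9% held at least 2 Chga UMIs. Of 252 recomputed levels 11 moved by over 1.5 times, all with the gate. No direction between Fabp6-high and Fabp6-low cells reversed in 288 comparisons over all positions, though 67 ratios moved outside counting error. Within single Apoa4 or zone bins 4 of 130 did, as log2 ratios Nr0b2 in the lowest Apoa4 bin of libraries 1, 2 and 4 (0.11, 1.91 and 1.25) and Nr1h4 in the next bin of library 2 (-0.35). Another 100 of the 130 moved outside the counting error of the ratio over all positions, and 26 stayed within it. Slc10a2 beside Fabp6 was seen in 23.1% to 38.2% of cells in the lower part of the Apoa4 share and 2.11% to 6.58% in the upper part. The 10 genes most like Fabp6 kept 6 when thinned and 6 to 10 with a library left out.

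Villus profiles depended on the measure. The log2 ratio of last to first bin, negative by the Apoa4 share in all enterocytes, was positive for Slc10a2 in Fabp6-low cells (0.83, 0.59 and 0.65 in libraries 1 to 3), in Fabp6-high cells (0.23, 0.15 and 0.37 in libraries 1, 3 and 4) and by the zone score in library 2 (1.87; 1.63 within Fabp6-high cells). It was positive for Slc51a in Fabp6-high cells of libraries 1 and 3 (0.15 and 0.033), for Fabp6 in Fabp6-low cells of libraries 1 and 4 (0.30 and 0.0068), and for Fgf15 in Fabp6-high cells of library 3 (0.92) and by the zone score in library 2 (0.89; 1.08 within Fabp6-high cells). Region profiles did so as well. With the distal list alone in place of the region score, the ratio for Nr0b2, negative by the score, was 0.41, 0.63, 1.42 and 0.44. The ratio for Nr1h4, positive by the score, was -0.34 and -0.54 in libraries 2 and 3. The cause was not tested.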
